A study of Bubalus bubalis with 6 samples.

Results

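Rab GTPases are small switch proteins that mark the membranes of a cell, and they give the circRNAs described here. The set holds every host gene (the gene a circRNA is made from) whose symbol is RAB followed by a digit or starts with RAB3, RABGAP, RABEP, TBC1D, DENND or RAB11FIP. It has 84 of the 8611 host genes and 859 of the 57308 circRNAs in the deposited table. By known role, 32 hosts encode Rab GTPases (158 circRNAs), 29 TBC-domain and other GTPase-activating proteins (400), 15 exchange factors (281) and 7 effectors (19). RAB5IF, matched by its symbol only, gave 1 circRNA and is not a Rab GTPase. TBC1D7, a subunit of the TSC complex, and TBC1D31 and TBC1D32, proteins of centrioles and cilia, were kept because the symbol rule takes them.

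A Rab protein is active on a membrane when it holds GTP and inactive when it holds GDP. Exchange factors, among them the DENND proteins, load the GTP, and GTPase-activating proteins, most of which carry a TBC domain, make the Rab hydrolyse it. Active Rabs recruit effectors such as RABEP1 and the RAB11FIP proteins, which tether, move and fuse vesicles. In blood, Rab proteins are known for the secretion of granules by platelets and leukocytes and for endocytosis. A circRNA is a closed RNA circle made by back-splicing, and its reads say nothing by themselves of the protein or linear mRNA of its host.

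The libraries came from jugular vein blood of Jianghuai buffaloes, 3 pregnant (named P-Buffalo) and 3 non-pregnant (named C-Buffalo), 1 animal per library. All animals were healthy cows of 3 to 5 years, and oestrus was synchronised with 2 prostaglandin injections 11 days apart. P-Buffalo cows were inseminated, bled on day 25 and found pregnant by ultrasound on day 60, while C-Buffalo cows were left without insemination and bled on the same day. Insemination and pregnancy therefore cannot be told apart. In whole blood, fewer cells of a type and less RNA per cell cannot be told apart either.

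Library totals ran from 815851 to 1298753 counts. Levels are given as CPM, counts scaled to a common library size. Where a library has 0 reads, levels up to 2.31 to 3.68 CPM before TMM factors, and up to 2.28 to 4.82 CPM on the host scale after them, remain possible (3 counts, for counting error only). Non-pregnant replicate 2 stood apart from the other 5 libraries. It had 12336 circRNAs with reads against 17446 to 26802 in the other 5 libraries. Its TMM factor, which rescales a library against the others, was 0.69 for host genes against 0.99 to 1.13. For single circRNAs this factor was 0.47 against 1.09 to 1.25. Fold changes are also given without this library for the hosts it moved most. Blood cell markers were looked up as host genes. The platelet list (8 of its 10 genes in the table, PF4 and GP1BA not among them) summed to 2528 to 3293 CPM in C-Buffalo and to 1323 to 2112 CPM in P-Buffalo, lower in every pregnant animal. The T cell list (6 of 8 genes) summed to 2089 to 2922 CPM and to 1556 to 2828 CPM, so its groups overlapped. The neutrophil list (5 of 8 genes) summed to 56.1 to 124 CPM and to 35.6 to 66.2 CPM, the monocyte list (2 of 7) to 2.15 to 32.6 CPM and to 9.24 to 44.1 CPM, and the B cell list (5 of 7) to 243 to 646 CPM and to 260 to 561 CPM, all with overlapping groups. The NK cell list (1 of 6 genes) had reads in 1 library only, a pregnant animal at 2.89 CPM. HBB, HBA, CD14, LYZ, CD3D, CD79A and NKG7 were not among the host genes, so this table does not show the defining markers of several blood cell types.

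The set took 1.68%, 1.37% and 1.67% of the counts in non-pregnant replicates 1, 2 and 3 and 1.50%, 1.74% and 1.62% in pregnant replicates 1, 2 and 3. The groups overlapped, and non-pregnant replicate 2 had the lowest share. Rab GTPases took 0.668%, 0.485% and 0.564% in C-Buffalo and 0.598%, 0.632% and 0.586% in P-Buffalo. GTPase-activating proteins took 0.616%, 0.361% and 0.627% in C-Buffalo and 0.507%, 0.646% and 0.584% in P-Buffalo. For both of these classes non-pregnant replicate 2 was the lowest library by share of counts, and this turned after TMM factors. On that scale the Rab GTPases summed to 6935, 7256 and 5118 CPM in C-Buffalo, with that library the highest, and to 5596, 6234 and 5343 CPM in P-Buffalo. The GTPase-activating proteins summed to 6398, 5407 and 5687 CPM and to 4742, 6372 and 5326 CPM, with that library inside the range of the others. Exchange factors took 0.362%, 0.523% and 0.445% in C-Buffalo and 0.363%, 0.428% and 0.421% in P-Buffalo, and here the same library was the highest. Effectors took 0.0240% of all counts.

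The share of circRNAs listed as intronic differed by role within the set. Of the 859, 741 were exonic and 118 were intronic (13.7%, and 13.7% in the whole table). Rab GTPase hosts had 42 intronic circRNAs of 158 (26.6%), against 10.5% for GTPase-activating proteins and 11.03% for exchange factors. These shares are descriptions without a test. A host of the set gave a median of 5 circRNAs, against 3 over all hosts, and 17 of the 84 gave 1. Exonic circRNAs of the set held a median of 3 exons and spanned a median of 7954 bp of genome, against 5419 bp in the whole table. Detection was sparse: 446 of the 859 (51.9%) were read in 1 library only, against 56.5% in the whole table, and 85 were read in all 6. Of the 84 hosts, 52 were read in all 6 libraries.

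The host levels below are CPM after TMM factors, of the reads of all circRNAs of a host summed. The reads cross a back-splice junction, so they are not per length of gene. Starts and ends of circRNAs are given in genomic order, whichever strand the host is on. The plot of levels by library shows the hosts with the most reads in each role.

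**Figure D1:**
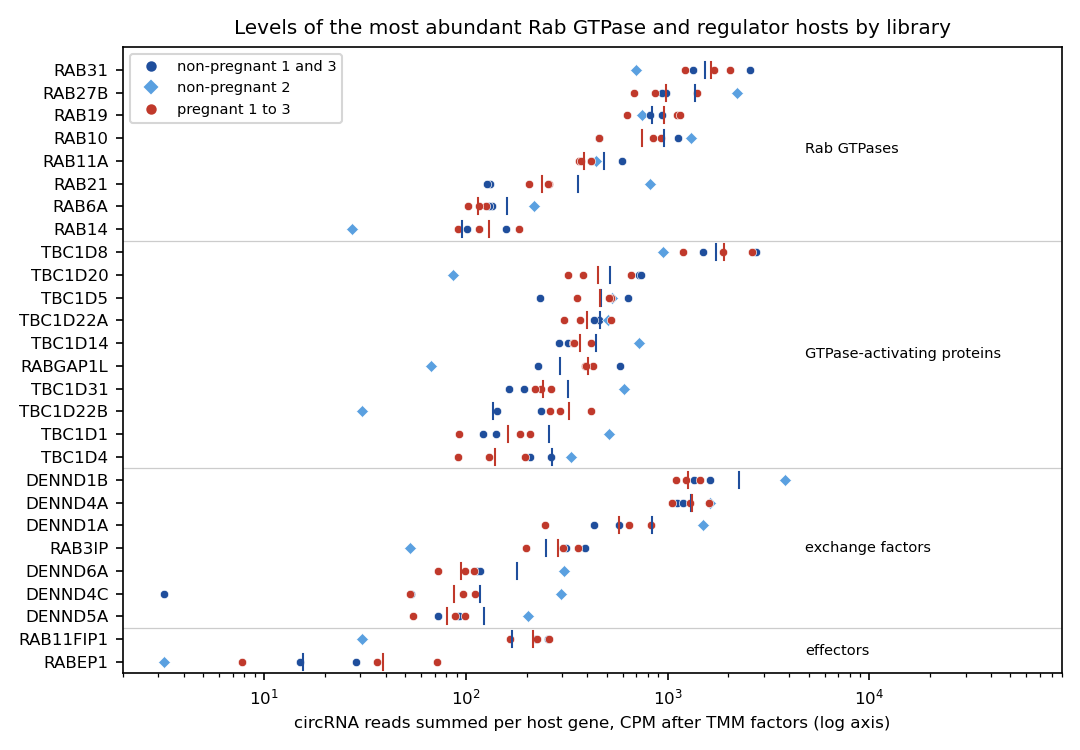
CircRNA reads summed per host gene (x axis, CPM after TMM factors, log axis) for the most abundant hosts of each role. Each point is 1 library and each vertical tick a group mean of 3 libraries (blue, non-pregnant; red, pregnant). Non-pregnant replicate 2 (light blue diamonds) is the lowest library for RAB31, TBC1D8 and TBC1D20 and the highest for RAB27B, DENND1B and DENND1A.

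Among Rab GTPases, RAB31, which acts between the trans-Golgi network and endosomes, was the most abundant host. It was at 2546, 698 and 1337 CPM in C-Buffalo and at 1213, 2028 and 1702 CPM in P-Buffalo. The groups overlapped, non-pregnant replicates 1 and 2 being the highest and the lowest library. Its mean was 1527 ± 938 CPM (SD, n = 3) in C-Buffalo and 1648 ± 410.2 CPM (SD, n = 3) in P-Buffalo, for a log2 fold change of 0.11 with a standard error (SE) of 0.49. The same value was -0.22 without non-pregnant replicate 2 and -0.07 without pregnant replicate 2. Most of its reads, 81.2%, came from circRNA8655 (20314467 to 20315543 on NC_037566.1, 2 exons), and 98.7% of its exonic reads ended at 20315543.

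RAB27B, which docks secretory granules at the plasma membrane, was at 978, 2195 and 935 CPM in C-Buffalo and at 1402, 681 and 868 CPM in P-Buffalo. Non-pregnant replicate 2 was again apart, now as the highest library, and the groups overlapped. The log2 fold change was -0.48 (SE 0.49) and 0.05 without that library. The 2-exon circRNA8590 (7945703 to 7948121 on NC_037566.1) held 96.8% of its reads, with 901, 1358 and 1105 reads in C-Buffalo and 1485, 879 and 750 in P-Buffalo. RAB27A, its close relative, had far fewer reads, 78, 2 and 217 in C-Buffalo and 192, 156 and 55 in P-Buffalo. In contrast to RAB27B, its lowest library was non-pregnant replicate 2.

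RAB19, a little-studied Rab of the Golgi, gave 1 circRNA, the intronic ciRNA1627 (103496786 to 103497142 on NC_037552.1, 357 bp). It was read in every library, 884, 467 and 1026 times in C-Buffalo and 1232, 1508 and 561 times in P-Buffalo. Its levels were among the least spread of the abundant hosts, 834 ± 94.6 CPM (SD, n = 3) in C-Buffalo and 961 ± 290 CPM (SD, n = 3) in P-Buffalo. The log2 fold change of 0.20 (SE 0.46) was -0.0046 with RLE factors and -0.01 with DESeq2, so it had no stable sign.

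RAB10, which moves vesicles to the plasma membrane, was at 1131, 1302 and 455 CPM in C-Buffalo and at 455, 930 and 845 CPM in P-Buffalo. The groups overlapped, and the log2 fold change was -0.37 (SE 0.52), and -0.08 without non-pregnant replicate 2. Its reads were divided between circRNA947 (40.6%), circRNA944 (29.5%) and circRNA946 (15.8%). CircRNA944 starts at 73029028 and circRNA947 ends at 73044862 on NC_037556.1, and circRNA946 runs from the first of these positions to the second. RAB11A, the Rab of recycling endosomes, was at 416, 443 and 596 CPM in C-Buffalo and at 362, 417 and 373 CPM in P-Buffalo, with a log2 fold change of -0.34 (SE 0.50).

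Some Rab genes that cells use widely gave few or no circRNA reads. RAB7A, the Rab of late endosomes, had 0 to 11.4 CPM, and RAB5A, the Rab of early endosomes, and RAB35, a Rab of endocytic recycling, had reads in 2 and 1 libraries. RAB1A, which acts between the endoplasmic reticulum and the Golgi, was at 24.4, 181 and 9.54 CPM in C-Buffalo and at 4.51, 25.1 and 15.6 CPM in P-Buffalo. RAB8A, an exocytic Rab, was at 63.5, 241 and 50.9 CPM in C-Buffalo and at 4.51, 81.3 and 19.0 CPM in P-Buffalo. In both, non-pregnant replicate 2 was the highest library and the other 5 overlapped. Their log2 fold changes were -2.23 (SE 1.18) and -1.75 (SE 1.06), both at an edgeR quasi-likelihood adjusted p of 0.901, and they were -0.15 and -0.69 without that library. RAB3C, a Rab of regulated secretion, had 125 reads in non-pregnant replicate 2 and 0 in the other 5 libraries, and it did not pass the filter on low counts. Among Rabs with higher means in P-Buffalo, RAB4A, an early endosomal Rab, and RAB2A, a Rab of the early secretory pathway, had log2 fold changes of 1.69 (SE 1.42) and 0.94 (SE 1.03), or 1.16 and 0.69 without non-pregnant replicate 2. RAB4A was read at 7.41, 0 and 10.3 CPM in C-Buffalo and at 19.8, 31.9 and 7.82 CPM in P-Buffalo, so its groups overlapped.

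Among the GTPase-activating proteins, TBC1D8, a TBC-domain protein, had the most reads of the whole set, 11491. It was at 2746, 947 and 1489 CPM in C-Buffalo and at 1194, 2604 and 1879 CPM in P-Buffalo. The libraries fell in the same order as for RAB31, non-pregnant replicate 1 first and non-pregnant replicate 2 last. The log2 fold change was 0.13 (SE 0.48), against -0.15 without non-pregnant replicate 2 and -0.18 without pregnant replicate 2. Of its exonic reads, 85.6% started at 5889514 and 85.1% ended at 5890650 on NC_037556.1, the ends of circRNA522 (2 exons, 74.4% of all reads of the host). The intronic ciRNA1073 of TBC1D8 had 606, 0 and 38 reads in C-Buffalo and 21, 49 and 15 in P-Buffalo, so that 606 of its 729 reads lay in 1 animal.

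TBC1D20, a GTPase-activating protein for RAB1 and RAB18, was at 724, 86.7 and 741 CPM in C-Buffalo and at 380.4, 661 and 322 CPM in P-Buffalo. Non-pregnant replicate 2 was the lowest library and non-pregnant replicates 1 and 3 the highest, with the pregnant animals between them. Its log2 fold change was -0.19 (SE 0.65), was -0.68 without non-pregnant replicate 2 and changed sign in several alternatives. Nearly all of its reads, 99.4%, were of circRNA11818 (22982234 to 22984657 on NC_037558.1). TBC1D5, which acts on RAB7 with the retromer complex, was at 232, 533 and 633 CPM in C-Buffalo and at 523, 357 and 512 CPM in P-Buffalo, a log2 fold change of -0.01 (SE 0.53), and 0.11 without that library. TBC1D22A, a TBC-domain protein of the Golgi, was at 458, 504 and 430.04 CPM in C-Buffalo and at 308, 525 and 367 CPM in P-Buffalo, a log2 fold change of -0.21 (SE 0.51), and -0.14 without it. The groups overlapped in all 3 hosts.

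TBC1D9 had the smallest p of the set. It had 50, 183 and 98 reads in C-Buffalo and 29, 48 and 39 in P-Buffalo, or 53.0, 294 and 77.9 CPM against 26.1, 36.4 and 43.6 CPM. Every pregnant animal lay below every non-pregnant animal, and non-pregnant replicate 2 lay far above the other 5 libraries. The mean was 142 ± 132 CPM (SD, n = 3) in C-Buffalo and 35.4 ± 8.77 CPM (SD, n = 3) in P-Buffalo, a log2 fold change of -1.99 (SE 0.91), with an unadjusted p of 0.042 and an edgeR quasi-likelihood adjusted p of 0.866. Without non-pregnant replicate 2 the log2 fold change was -0.88. RABGAP1, a GTPase-activating protein with a TBC domain, was at 93.2, 433 and 78.7 CPM in C-Buffalo and at 103, 49.4 and 77.1 CPM in P-Buffalo, so that only non-pregnant replicate 2 stood apart. Its log2 fold change of -1.40 was -0.16 without that library.

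TBC1D22B, the paralog of TBC1D22A, had the smallest p among hosts that were higher in P-Buffalo. It had 134, 19 and 298 reads in C-Buffalo and 464, 346 and 261 in P-Buffalo, or 142, 30.5 and 237 CPM against 418, 263 and 292 CPM. The groups did not overlap on the CPM scale, with non-pregnant replicate 2 the lowest. The log2 fold change was 1.24 (SE 0.70), with an unadjusted p of 0.095 and an edgeR quasi-likelihood adjusted p of 0.901. It was 0.78 without non-pregnant replicate 2 and 1.90 without non-pregnant replicate 3. TBC1D2B, another TBC-domain protein, also did not overlap, at 8.47, 4.82 and 3.97 CPM in C-Buffalo and 21.6, 12.9 and 15.6 CPM in P-Buffalo, but these are few reads and the standard error of its log2 fold change of 1.52 was 1.35. TBC1D4, a GTPase-activating protein known from insulin-driven glucose uptake, was at 265, 331 and 208 CPM in C-Buffalo and at 91.0, 197 and 131 CPM in P-Buffalo. All 3 pregnant animals lay below the lowest non-pregnant animal on this scale. The log2 fold change was -0.94 (SE 0.63), with an unadjusted p of 0.156 and an edgeR quasi-likelihood adjusted p of 0.926. It was -0.75 without non-pregnant replicate 2. On SRPBM, the authors' scaling to mapped reads, the groups of TBC1D4 and of TBC1D22B overlapped.

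The exchange factors gave the hosts with the most circRNAs, DENND4A with 67, DENND1B with 55 and DENND1A with 43. DENND1B, an exchange factor for RAB35, was at 1356, 3816 and 1616 CPM in C-Buffalo and at 1453, 1097 and 1235 CPM in P-Buffalo. Non-pregnant replicate 2 lay above the other 5, which overlapped. The mean was 2263 ± 1352 CPM (SD, n = 3) against 1262 ± 179.8 CPM (SD, n = 3), a log2 fold change of -0.84 (SE 0.47) with an unadjusted p of 0.092 and an edgeR quasi-likelihood adjusted p of 0.901, and of -0.23 without that library.

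The circRNAs of DENND1B shared a few splice positions. Starts at 4414576 on NC_037549.1 were used by 5 circRNAs with 55.6% of its exonic reads, and ends at 4450575 by 7 circRNAs with 48.9%. The circRNA with both, circRNA11040 (5 exons), had 183, 916 and 358 reads in C-Buffalo and 407, 230 and 336 in P-Buffalo. This is a log2 fold change of -1.62 (SE 0.99), and of 0.33 without non-pregnant replicate 2. CircRNA11038, which has the same start, was more even before scaling. It had 239, 266 and 267 reads in C-Buffalo and 242, 233 and 210.0 in P-Buffalo. After scaling by TMM over single circRNAs, 3 reads stand for 6.90 CPM in non-pregnant replicate 2 and for 2.11 to 2.95 CPM elsewhere. On that scale this library was the highest for circRNA11038, so the evenness holds for unscaled reads only.

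DENND4A, an exchange factor for RAB10, had nearly equal group means. It was at 1117, 1620 and 1192 CPM in C-Buffalo and at 1055, 1606 and 1286 CPM in P-Buffalo. The mean was 1310 ± 271 CPM (SD, n = 3) against 1316 ± 277 CPM (SD, n = 3), and the log2 fold change was 0.01 (SE 0.44), or 0.20 without non-pregnant replicate 2. Of its exonic reads, 60.2% ended at 90031754 on NC_037555.1, which 6 circRNAs share. Among them was the single-exon circRNA6285 (90031505 to 90031754) with 29.4% of the reads of the host.

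DENND1A, also an exchange factor for RAB35, was at 574, 1498 and 431 CPM in C-Buffalo and at 247, 828 and 647 CPM in P-Buffalo. The groups overlapped, and the log2 fold change of -0.54 (SE 0.58) was 0.20 without non-pregnant replicate 2. In that library 90.7% of its exonic reads started at 94409034 on NC_037556.1, against 26.3% to 50.1% in the other 5, so the shares of its circRNAs also differed there. RAB3IP (Rabin8), an exchange factor for RAB8, was at 388, 53.0 and 312 CPM in C-Buffalo and at 199, 361 and 302 CPM in P-Buffalo. Its log2 fold change was 0.19 (SE 0.68) and -0.27 without non-pregnant replicate 2. DENND6A, an exchange factor for RAB14, was at 113, 308 and 118 CPM in C-Buffalo and at 110, 72.9 and 99.5 CPM in P-Buffalo. Its pregnant animals lay below its non-pregnant animals by a narrow margin, 110 against 113 CPM. On plain library totals the groups overlapped, with pregnant replicate 1 at 118 CPM and non-pregnant replicate 1 at 109 CPM.

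Among the effectors, RAB11FIP1, which binds RAB11 on recycling endosomes, was at 255, 30.5 and 223 CPM in C-Buffalo and at 165, 224 and 258 CPM in P-Buffalo. The 1-exon circRNA4083 held 98.7% of its reads, and the log2 fold change of 0.34 (SE 0.73) was -0.14 without non-pregnant replicate 2. RABEP1 (rabaptin-5), an effector of RAB5, had a log2 fold change of 1.29 (SE 1.16), or 0.85 without the same library, with 28.6, 3.21 and 15.1 CPM in C-Buffalo and 72.1, 36.4 and 7.82 CPM in P-Buffalo. RAB11FIP5 and RABEP2, the next effectors by level, had at most 15.9 and 6.42 CPM in any library. RAB5IF was at 68.8, 14.4 and 67.6 CPM in C-Buffalo and at 0, 61.5 and 25.7 CPM in P-Buffalo.

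Non-pregnant replicate 2 was at one end of the libraries for most of the set. Over the 52 hosts with a mean count of at least 20, it was the highest library in 21 (40.4%) and the lowest in 20 (38.5%). Over all 3394 hosts with that mean count, it was the highest in 36.8% and the lowest in 43.0%, so the set was like the rest of the table here. The split moved with the scaling. With CPM on plain library totals it was the highest in 16 and the lowest in 23, and with SRPBM, the authors' scaling to mapped reads, in 11 and 26. After TMM factors its level was more than 2 times the median of the other 5 libraries in 15 hosts and under 0.5 times in 23. RAB3C, which had 0 reads in the other libraries, has no such ratio.

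**Figure D2:**
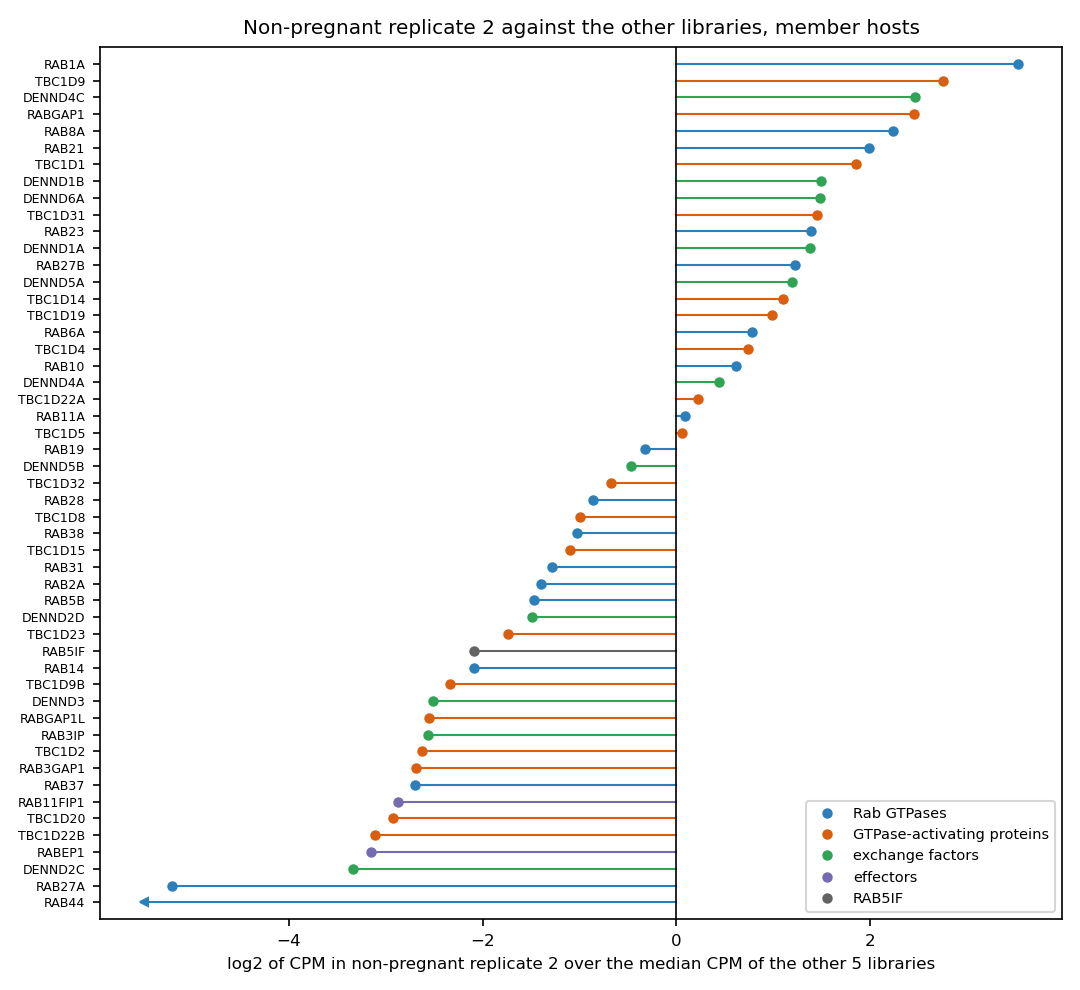
Level in non-pregnant replicate 2 over the median of the other 5 libraries (x axis, log2 of the ratio of CPM) for 51 hosts with a mean count of at least 20, coloured by role. RAB1A and TBC1D9 are at the upper end and RAB27A and RAB44 at the lower end, where the arrow for RAB44 marks 0 reads in that library.

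The same library held its reads in fewer circRNAs. With circRNAs 1 bp apart joined, the leading circRNA of a library was found for 27 hosts. It held a median of 86.4% of the reads of the host in non-pregnant replicate 2, against 45.4% and 50.4% in non-pregnant replicates 1 and 3 and 42.0%, 47.8% and 50.9% in the pregnant animals. The share was above 90% in 10 of the 27 hosts in that library and in 2 to 5 in each of the others. It was the highest of the 6 libraries there for 14 of the 27. RAB21, a Rab of early endosomes that handles integrins, was an exception, with its lowest share in that library. This comparison is within a host, so it does not depend on library scaling. What made this library differ was not tested.

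**Figure D3:**
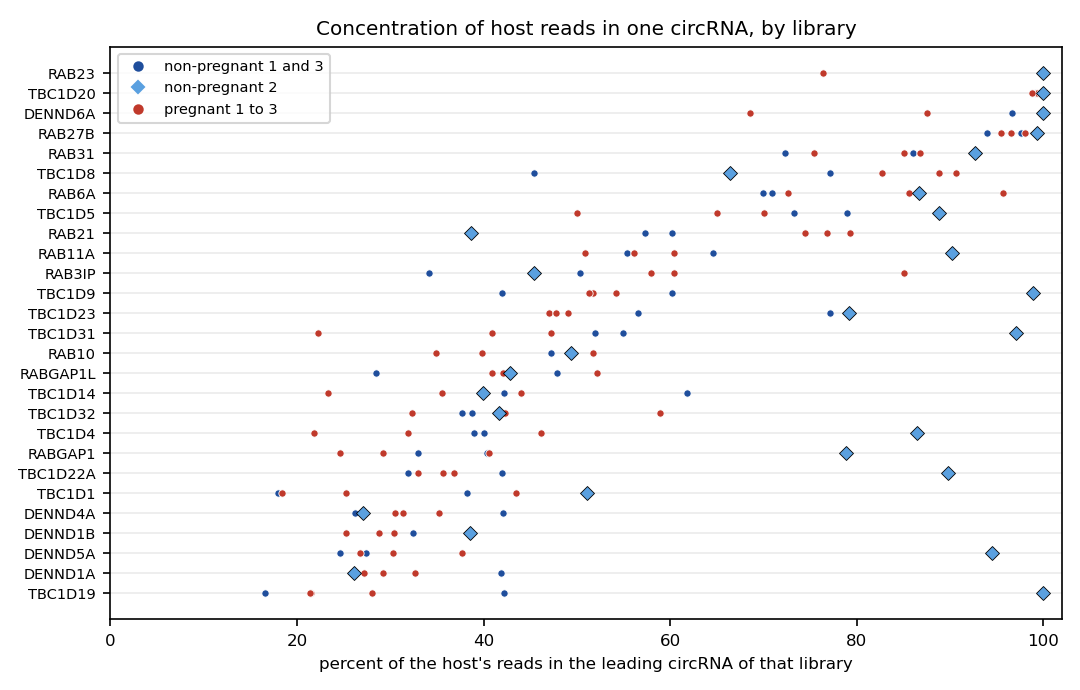
Percent of the reads of a host held by the leading circRNA of that library (x axis) for 27 hosts, each point 1 library. Non-pregnant replicate 2 (diamonds) lies to the right of the other 5 libraries for 14 hosts, and its median is 86.4% against 42.0% to 50.9%.

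Pregnant and non-pregnant animals were then compared by edgeR's quasi-likelihood test, fitted on all host genes of the table with p-values adjusted over all of them. Of the 84 hosts, 58 passed the filter on low counts and 26 did not. A call needed an adjusted p under 0.05 with a log2 fold change of 1 or more in either direction. By this rule 0 of the 58 were called (adjusted p from 0.866 to 0.998), and 0 (0%) of all 4137 tested hosts. At an unadjusted p under 0.05 with the same fold, 0 were higher (0.967% of all hosts) and 1, TBC1D9, was lower (4.52% of all hosts). Over all hosts these were 40 higher and 187 lower, and with library totals implied by SRPBM 43 higher and 37 lower, with 0 of the set in either direction. DESeq2 called 0 hosts of the set at an adjusted p and 0 higher and 3 lower at an unadjusted p (RAB1A, RAB8A and TBC1D9), against 123 higher and 249 lower of all 8611 hosts. With limma on log2(SRPBM + 1) the set had 0 of each, against 98 higher and 22 lower of all 4137. The groups did not overlap in 2 hosts that were higher, TBC1D22B and TBC1D2B, where 7.06% of all hosts did so. They did not overlap in 4 that were lower, TBC1D9, TBC1D4, RAB6A and DENND6A, where 4.47% of all hosts did so. These positions are after TMM factors. With CPM on plain library totals the groups of RAB6A and DENND6A overlapped, while those of TBC1D9, TBC1D4, TBC1D22B and TBC1D2B did not. With SRPBM the groups of RAB6A, TBC1D4 and TBC1D22B overlapped, while those of TBC1D9, TBC1D2B and DENND6A did not.

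The median log2 fold change of the 58 hosts was -0.21, against 0.01 over all hosts tested, with 24 above 0 and 34 below. With library totals implied by SRPBM the median of the set was 0.07, against 0.16 over all hosts, so its sign depended on the scaling. With RLE factors the medians were -0.37 and -0.13. The set lay below all hosts under each of these scalings, and this difference was not tested. By role, 10 of 21 Rab GTPases, 8 of 23 GTPase-activating proteins and 4 of 11 exchange factors were above 0. Both tested effectors were above 0. The sums of the platelet list, given above, were lower in every pregnant animal, and their part in any of these values was not tested.

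**Figure D4:**
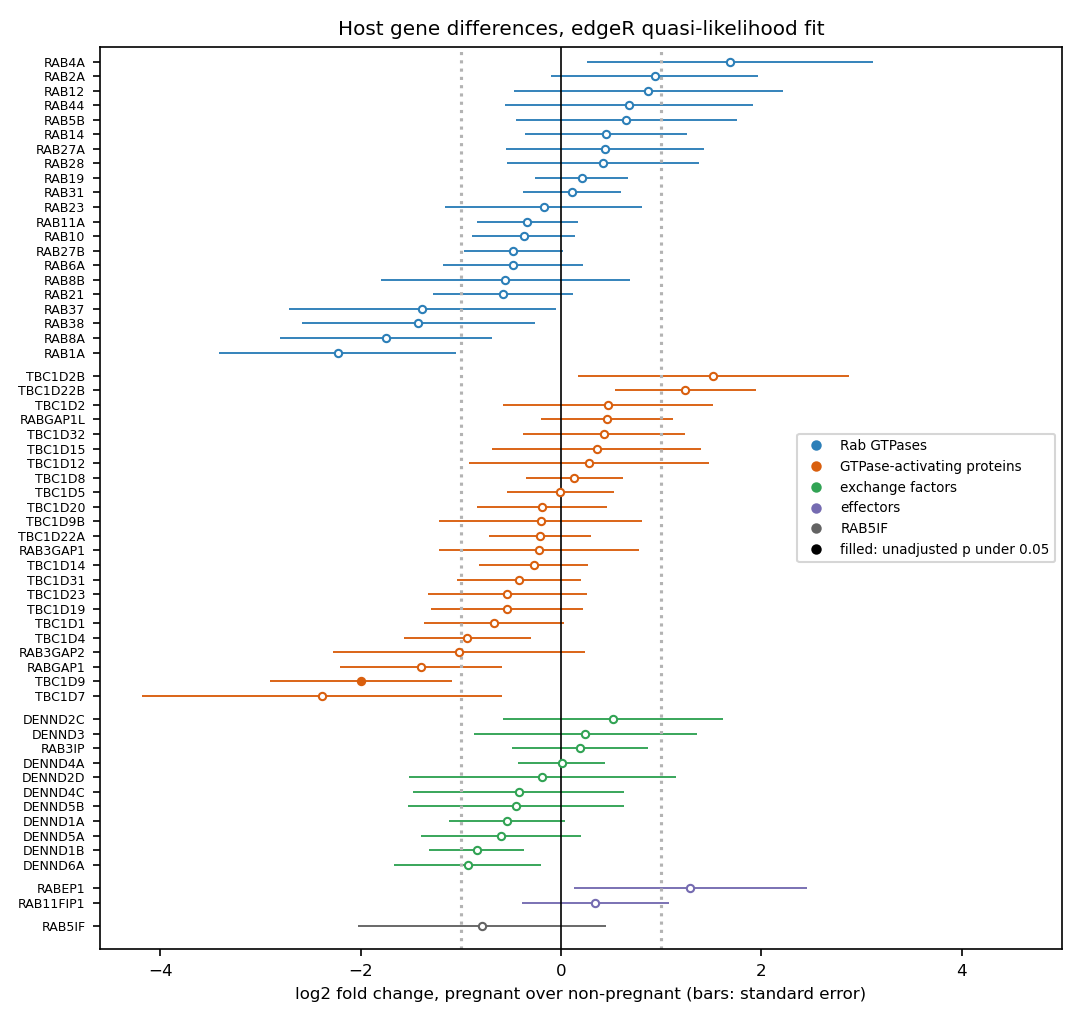
Log2 fold change of pregnant over non-pregnant animals (x axis) with its standard error (bars) for the 58 tested hosts by role, 3 animals per group. The filled point is TBC1D9, at -1.99, the 1 host at an unadjusted p under 0.05, and dotted lines mark a log2 fold change of -1 and 1.

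The same test was run on single circRNAs. Of the 859, 151 passed the filter and 708 did not. At an adjusted p, 0 of the 151 were called (adjusted p from 0.983 to 1.00), and 0 (0%) of all 8261 tested. At an unadjusted p with the same fold, 0 were higher (1.43% of all) and 5 were lower (2.46% of all). In all 5 non-pregnant replicate 2 was the highest library after TMM factors. DESeq2 called 4 circRNAs of the set at an adjusted p, with all of their reads in that library, and limma on log2(SRPBM + 1) called 0. With circRNAs 1 bp apart joined, 0 were higher (1.6% of all) and 7 were lower (3.78% of all). The groups did not overlap in 9 circRNAs that were higher (8.16% of all) and in 9 that were lower (3.87% of all).

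The 5 lower circRNAs came from exchange factors and GTPase-activating proteins. CircRNA9283 of DENND5A, a DENN-domain protein that binds RAB6 (41474893 to 41475813 on NC_037560.1), had 17, 119 and 32 reads in C-Buffalo and 0, 0 and 9 in P-Buffalo. Its log2 fold change was -5.13 (SE 1.94, unadjusted p 0.027) and -2.76 without non-pregnant replicate 2. Its partner circRNA44199, which starts 1 bp later, had 18 reads in pregnant replicate 2 and 0 elsewhere, and with both joined the log2 fold change was -3.89.

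CircRNA11037 of DENND1B (4386914 to 4396660 on NC_037549.1, 4 exons) had 144, 178 and 160 reads in C-Buffalo and 50, 87 and 35 in P-Buffalo. All pregnant animals lay below all non-pregnant ones, and its log2 fold change was -2.27 (SE 0.90) and -1.47 without non-pregnant replicate 2. The other 3 rested more on that library. CircRNA9759 of TBC1D9 (21, 181 and 59 reads against 15, 26 and 19) had a log2 fold change of -3.26 that became -0.95 without it. CircRNA1056 of DENND1A (19, 114 and 34 reads against 8, 20 and 17) went from -3.01 to -0.79. CircRNA1050 of RABGAP1 (15, 213 and 40 reads against 28, 6 and 16), whose groups overlapped, went from -3.62 to -0.62. For all 5, the edgeR quasi-likelihood adjusted p was 0.983.

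Of the 9 circRNAs with non-overlapping groups that were higher in P-Buffalo, the 5 with the smallest p are given here. The intronic ciRNA1587 of DENND1A (94318587 to 94356517 on NC_037556.1) had 65, 11 and 46 reads in C-Buffalo and 80, 266 and 189 in P-Buffalo. Pregnant replicates 2 and 3 were well above the rest and pregnant replicate 1 was close to non-pregnant replicate 1. Its log2 fold change was 1.87 (SE 0.92), with an unadjusted p of 0.072 and an edgeR quasi-likelihood adjusted p of 0.983. CircRNA18140 and circRNA18139 of DENND5A had 22 to 31 and 22 to 28 reads in the pregnant animals and 0 to 14 and 0 to 12 in the non-pregnant animals. CircRNA17273 of DENND4A and circRNA14065 of DENND1A had similar counts, 14 to 23 and 15 to 21 reads against 0 to 13 and 0 to 10. The log2 fold changes of these 4, each taken alone, ran from 1.77 to 2.15, with standard errors from 1.39 to 1.75. CircRNA18140 and circRNA17273 have partners that start 1 bp later, circRNA12783 and circRNA13301. The partners had 8 and 5 reads in non-pregnant replicate 1, where circRNA18140 and circRNA17273 had 0.

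DENND5A thus gave circRNAs that lay in opposite directions, circRNA9283 lower and circRNA18140 higher, which both end at 41475813. Each is taken here without its partner named above. The sum over the host, at 73.1, 202 and 93.0 CPM in C-Buffalo and at 55.0, 88.1 and 99.5 CPM in P-Buffalo, overlapped between the groups. A test of this difference between circRNAs of 1 host was not made.

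The share of a host's reads held by its leading circRNA was compared in 13 hosts. In TBC1D8, circRNA522 held 63.0% ± 16.1 (SD, n = 3) in C-Buffalo and 87.4% ± 4.13 (SD, n = 3) in P-Buffalo. In RAB3IP, circRNA3386 (76516025 to 76517407 on NC_037548.1) held 43.3% ± 8.32 (SD, n = 3) in C-Buffalo and 67.8% ± 15.0 (SD, n = 3) in P-Buffalo. In TBC1D5, circRNA4887 held 80.4% ± 7.90 (SD, n = 3) in C-Buffalo and 61.7% ± 10.4 (SD, n = 3) in P-Buffalo. The groups did not overlap in these 3 hosts, and each had p = 0.1 in an exact permutation test (two-sided), the smallest that 3 against 3 allows, and 0.433 after adjustment over the 13. In the other 10 hosts the exact p ran from 0.3 to 1.

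Some circRNAs of the set were read under a pair of names whose ends differ by 1 bp. There were 80 such pairs in 32 hosts, with 160 circRNAs (18.6% of the set, against 14.4% of the table). A pair had reads in a library in 324 cases, and in 1 of them both members had reads, so a library nearly always listed a pair under one name or the other. In DENND1B, circRNA11044 (start 4421371) had 389, 0 and 659 reads in C-Buffalo and 346, 416 and 0 in P-Buffalo, and circRNA19144 (start 4421372) had 361 in non-pregnant replicate 2, 173 in pregnant replicate 3 and 0 elsewhere. In DENND4A, circRNA17270 was read in 5 libraries, 179 to 361 times, and circRNA13299, 1 bp shorter, 73 times in non-pregnant replicate 1, the library where the first was at 0. In DENND6A, circRNA5065 was read 84 to 192 times in 5 libraries and circRNA48950 61 times in the library without it, pregnant replicate 3. TBC1D22A gave circRNA2948 (67 to 170 reads in 5 libraries) and circRNA19634 (5 reads in non-pregnant replicate 2). Counts of such a circRNA taken alone can be 0 where the joined pair is not.

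**Figure D5:**
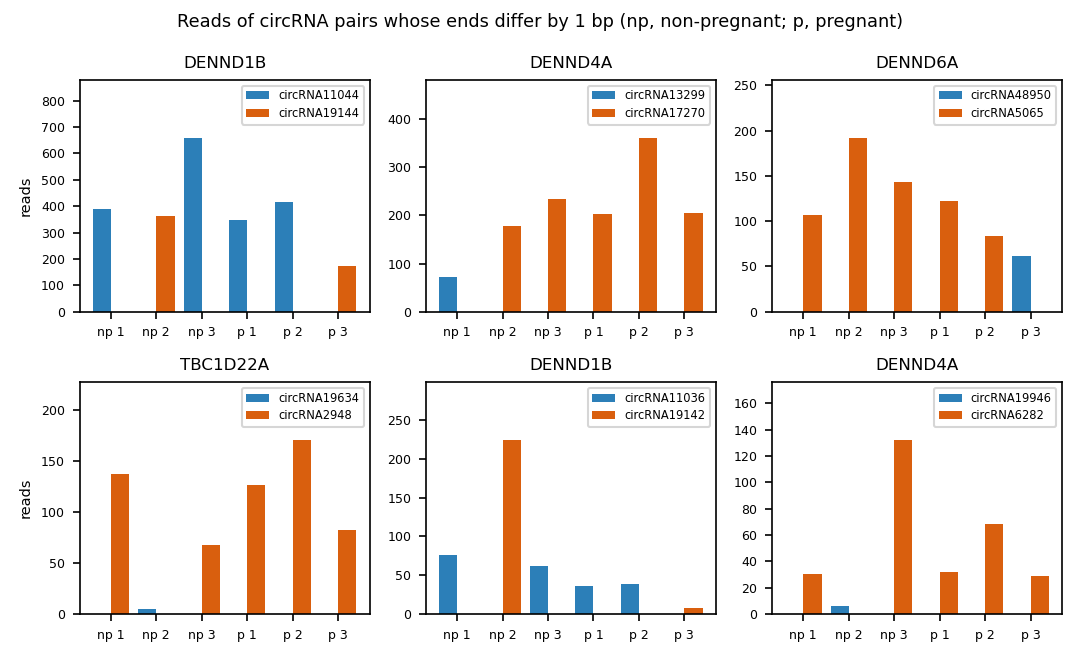
Reads (y axis) of both members of 6 circRNA pairs whose ends differ by 1 bp, in each of the 6 libraries (np, non-pregnant; p, pregnant). In each library only 1 member of a pair has reads, and the libraries of 1 group are divided between the members in DENND1B, DENND4A, DENND6A and TBC1D22A.

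Reads confined to 1 group were mostly reads of 1 library. Of the 859 circRNAs, 303 (35.3%, and 37.9% in the table) were read in pregnant animals only, and 264 of them in 1 library. In all 3 pregnant animals and no non-pregnant animal, 7 were read (0.815% of the set, and 0.750% in the table), from RAB3IP, TBC1D31, RAB14, TBC1D5, RABEP1 and, with 2 circRNAs, TBC1D14. The one of RAB3IP, circRNA32666, had 8, 11 and 56 reads, and the one of RAB14, circRNA37148, had 9, 11 and 18. CircRNA32666 has a partner that starts 1 bp later, circRNA19918, with 2 and 51 reads in non-pregnant replicates 2 and 3, so the joined pair was not confined to pregnant animals. In non-pregnant animals only, 203 (23.6%, and 25.7% in the table) were read. Of these, 1 was read in all 3 (0.116% of the set, and 0.215% in the table), ciRNA568 of DENND5B, with 9, 9 and 34 reads.

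Other genes of the Rab cycle, from a list of 69 prenylation and GDI genes, exchange factors, GTPase-activating proteins, effectors and kinases outside the symbol rule, were looked up in the same fit. Of these, 49 were among the host genes and 31 were tested. At an unadjusted p under 0.05, 0 were higher and 2 were lower (0.967% and 4.52% of all hosts), and 0 passed at an adjusted p. The 2 were TRAPPC10, a subunit of a TRAPP tethering complex, with 28, 328 and 60 reads in C-Buffalo and 35, 49 and 7 in P-Buffalo, and EXOC6, an exocyst subunit, with 215, 775 and 388 reads and 283, 335 and 48. Both had their highest count in non-pregnant replicate 2, and the edgeR quasi-likelihood adjusted p of each was 0.844. The median log2 fold change of the 31 was -0.17, with 12 above 0 and 19 below. VPS8, USP6NL, SYTL3 and GDI2 had the highest levels, with log2 fold changes of -0.21, 0.41, -0.17 and -0.49. RIMS1, an effector of RAB3, and INPP5B, a phosphatase that binds Rabs, had the smallest p above 0, with 0.55 and 0.88.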

How the data were processed

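Blood circRNAs of 3 non-pregnant and 3 pregnant buffaloes were analysed, grouped as the labels name them. The authors deposited read counts of each circRNA, unnormalized, and a signal, SRPBM, which is that count divided by 1 constant per library. The paper names CIRCExplorer, CIRI and the assembly ASM312139v1, while the submitters' notes name HISAT2, edgeR and GRCh38.p10. The sources used here do not say which of them made these counts, and coordinates are printed as deposited. No sequence was printed.

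Counts were summed per host gene without intergenic circRNAs, which held 2.24% to 3.52% of a library. Tests were made in edgeR 4.0.16 under R 4.3.3 (quasi-likelihood, TMM factors, default filter, Benjamini-Hochberg adjustment over the whole table), with a log2 fold change of at least 1 for calls. They were also run on simulated counts, whose recovery of known changes is not given here. The absence of calls therefore does not show an absence of changes. Alternatives were RLE factors, SRPBM totals, no filter, a mean count of 20, DESeq2 1.42.0, limma 3.58.1 on log2(SRPBM + 1) or log2(SRPBM + 0.1), exonic circRNAs alone, joining circRNAs within 1 bp, a replicate block and leaving out each library. The study itself used a t-test. Shares were compared by exact permutation tests in hosts with at least 20 counts in a library. The labels give no batch. Each library is 1 animal. Of the 84 symbols, 82 are in the RefSeq gene table of NDDB_SH_1, used for names only.

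Named were the 4 most abundant hosts of a role, up to 5 hosts and circRNAs per direction with the smallest p, leading circRNAs, the 3 hosts with the most circRNAs, the 4 pairs with the most reads and, of the other Rab cycle genes, 2 per direction by p and the 4 highest. RAB11A, RAB27A, RAB3C, RAB7A, RAB5A, RAB35, RAB21, RAB44, TBC1D4, RAB6A, DENND6A, circRNA944, circRNA946, circRNA11038, circRNA44199 and ciRNA1073 were added after their values were seen. CircRNA32666, circRNA37148 and ciRNA568, named for reads confined to a single group, also lie outside this rule. So do the partners circRNA12783, circRNA13301 and circRNA19918. The members and lists were chosen with earlier results of these data known. The sum of one marker list is not reported here.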

Additional observations from a re-analysis of the deposited data

How the results depend on the processing

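The main limits are 3 animals per group, 1 library that stands apart and sparse counts. No host or circRNA of the set passed an adjusted p of 0.05 where edgeR's filter was kept. Without the filter, 1 host of the set (RAB3C) and 11 circRNAs of the set passed, all lower in P-Buffalo and with 92.4% to 100% of their reads in non-pregnant replicate 2. DESeq2, run without that filter, called 4 circRNAs of the set with 100% of their reads there. Over all hosts 86 passed without the filter, 7 with DESeq2 and 1 with the replicate block. Over all circRNAs 600 passed without the filter and 159 with DESeq2. The cause of these differences was not tested. With 1 library left out, 0 to 2 of all hosts passed and 0 of the set.

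At an unadjusted p, the 1 lower host of the set became 2 with RLE factors (RAB1A and TBC1D9), 0 with SRPBM totals, 3 without the filter, 3 with DESeq2, 0 with limma at either pseudocount, 0 with the replicate block and 0 to 3 with 1 library left out. The count was 0 without non-pregnant replicate 2. It stayed at 1 with another host in 3 settings, RAB3C with a mean count of at least 20, TBC1D7 without pregnant replicate 1 and RAB8A without pregnant replicate 2, where the unadjusted p of TBC1D9 was 0.062, 0.141 and 0.109. The 0 higher hosts became 1 (TBC1D22B) with the replicate block and 0 to 1 with 1 library left out. The 5 lower circRNAs became 2 with SRPBM totals, 27 without the filter, 10 with DESeq2, 1 with limma at either pseudocount, 1 with the replicate block and 2 to 11 with 1 library left out. The 0 higher circRNAs became 7 without the filter, 7 with DESeq2, 1 with limma on log2(SRPBM + 1), 3 with limma on log2(SRPBM + 0.1) and 0 to 3 with 1 library left out. Joining circRNAs within 1 bp gave 7 lower and 0 higher. Over all circRNAs the 118 higher and 203 lower became 105 and 55 with SRPBM totals, 601 and 1520 without the filter, 370 and 531 with DESeq2, 269 and 95 with limma on log2(SRPBM + 1) and 305 and 56 on log2(SRPBM + 0.1). No sign of pairing by replicate number was seen. The deviations of same-numbered libraries from their group means correlated at -0.15, -0.073 and -0.018. In 0 of the 3 pairs was the own number the best match. With 3 libraries per group this check cannot settle whether the animals were paired. The median log2 fold change of all hosts, 0.01, was -0.13 with RLE factors and 0.16 with SRPBM totals.

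On average the set took 1.57% (C-Buffalo) and 1.62% (P-Buffalo) of a library. With exonic circRNAs alone it took 1.40% and 1.44%, and without its most abundant circRNA 1.48% and 1.45%, so the order of the means turned. Rab GTPases, at 0.572% and 0.605%, took 0.475% and 0.484% with exonic circRNAs alone and 0.452% and 0.463% without their most abundant circRNA. GTPase-activating proteins, at 0.535% and 0.579%, took 0.438% and 0.406% without theirs, which also turned the order.

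The following log2 fold changes changed sign, each from a value within its standard error of 0 except for circRNA8590 and circRNA11040. CircRNA8590, circRNA11040, RAB27B and DENND1A did so on leaving out non-pregnant replicate 2. With RLE factors RAB19 was -0.0046, DENND4A -0.28 and circRNA1055 -0.10. With DESeq2 RAB19 was -0.0096, TBC1D8 -0.0026, DENND4A -0.29 and circRNA1055 -0.10. With SRPBM totals TBC1D5 was 0.18, TBC1D22A 0.074, circRNA8655 0.18, ciRNA1627 0.46 and circRNA947 0.057. With limma on log2(SRPBM + 1) TBC1D20 was 0.47, TBC1D5 0.33, circRNA8655 0.49, ciRNA1627 0.40, circRNA947 0.14, circRNA11818 0.46 and circRNA1055 -0.10. On log2(SRPBM + 0.1) they were 0.50, 0.33, 0.49, 0.40, 0.15, 0.49 and -0.14. With the replicate block TBC1D20 was 0.076, TBC1D5 0.084, circRNA8655 0.058 and circRNA1055 -0.26. With a mean count of at least 20 TBC1D5 was 0.085, circRNA8655 0.11 and ciRNA1627 0.25. Without the filter DENND4A was -0.050 and circRNA1055 -0.013, and with exonic circRNAs alone DENND4A was -0.0072. With 1 library left out the values ran from -0.22 to 0.71 for RAB31, -0.82 to 0.054 for RAB27B, -0.18 to 0.65 for TBC1D8, -0.68 to 0.17 for TBC1D20, -0.34 to 0.27 for TBC1D5, -0.18 to 0.20 for DENND4A, -0.92 to 0.20 for DENND1A, -0.27 to 0.67 for RAB3IP and -0.14 to 0.78 for RAB11FIP1. For circRNAs they ran from -0.24 to 0.42 for circRNA8655, -1.27 to 0.042 for circRNA8590, -0.20 to 0.21 for ciRNA1627, -0.55 to 0.045 for circRNA947, -0.69 to 0.11 for circRNA11818, -0.34 to 0.57 for circRNA2946, -2.15 to 0.33 for circRNA11040, -0.24 to 0.32 for circRNA6285, -0.47 to 0.54 for circRNA1055 and -0.16 to 0.72 for circRNA4083. The other 712 values for named hosts and circRNAs kept their direction and, for the adjusted p, their side of the threshold. Some crossed the threshold at an unadjusted p, as DENND1B did at -1.12 without non-pregnant replicate 1.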
